A study of Mus musculus with 6 samples.

Results

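The G protein-coupled receptors listed in RNA-seq of cultured mouse muscle stem cells (MuSCs) were described by family. They were taken by gene symbol, that is, by symbols that begin with Adgr, Gpr, Lpar, S1pr, P2ry, Adra, Adrb, Adora, Chrm, Htr, Drd, Hrh, Ccr, Cxcr or Ackr and carry a numbered ending, together with the protease-activated receptors F2r, F2rl1 and F2rl2. Of the 18943 genes in the table, 106 symbols fit this rule, and 97 of them were counted as receptors. The other 9 (Gpr89, Gprasp1, Gprasp2, Gprin1, Gprin2, Gprin3, Htra1, Htra2 and Htra3) share only the letters and were kept apart. The 97 include Golgi or lysosomal proteins kept by their symbol, such as Gpr107, Gpr137b and Gpr155, whose coupling to G proteins was not tested. A mean value of at least 5 over the 6 libraries, the limit for testing, was reached by 72 receptors, and 25 lay under it. Members were chosen by symbol, selected on no measured value other than having a row in the table, and the prefix Ccr took 0 rows. A receptor that passed the limit only through the group in which it was high had to differ between groups, so counts over the 72 are descriptions.

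All samples were wild-type (WT) MuSCs of C57BL/6 mice aged 8 weeks, purified by FACS and kept in culture for 5 days. Of the 3 groups, the first received DMSO, the solvent used as control, the second endothelin-3 (ET-3) and the third neurotensin (NT), each peptide at 100 nM by the labels, whereas the study's methods name other and higher concentrations. The ligands served to ask which genes change when receptors that couple to RhoA signaling are stimulated. Each group had 2 libraries here, although the series text speaks of triplicates. The study calls its RNA-seq samples biological, but no source used here says from which cultures or animals the 2 libraries of a group came, so p-values measure the spread between these libraries, which may in part be technical.

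G protein-coupled receptors cross the membrane repeatedly and pass the binding of an outside ligand to heterotrimeric G proteins, which act on cyclic AMP, calcium or small GTPases. Receptor kinases and arrestins then switch the receptors off and take them into the cell. In skeletal muscle, MuSCs lie quiescent beneath the basal lamina, and receptors for lipids, nucleotides, amines, peptides and matrix proteins are among the means by which they read their surroundings. Adhesion receptors (Adgr) bind matrix or neighboring cells through long extracellular parts, while many Gpr genes are orphans with no settled ligand.

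Promoter sequence is shown for 2 receptors that rose and 3 that fell under both ligands. They are the receptors with the largest changes, also with each treated pair counted as 1 sample, among those with a single entry in the RefSeq promoter table (GRCm38.p6). Each run holds the 250 bases before the start annotated in RefSeq, 5′ to 3′ on the strand of the gene. Capitals mark the E-box motif CANNTG, the kind bound by muscle transcription factors such as Myog, which reads the same on both strands. The runs lie at chr8:95017442-95017691 (plus strand) for Adgrg3, chr1:90203730-90203979 (plus) for Ackr3, chr6:25689981-25690230 (minus) for Gpr37, chr4:150087253-150087502 (plus) for Gpr157 and chr13:51408368-51408617 (plus) for S1pr3. Starts differ between annotations. In the Ensembl coordinates given with the values, the Gpr37 window lies inside the gene (chr6:25665878-25690729), and the Gpr157 window runs past the gene start at 150087365.
Adgrg3: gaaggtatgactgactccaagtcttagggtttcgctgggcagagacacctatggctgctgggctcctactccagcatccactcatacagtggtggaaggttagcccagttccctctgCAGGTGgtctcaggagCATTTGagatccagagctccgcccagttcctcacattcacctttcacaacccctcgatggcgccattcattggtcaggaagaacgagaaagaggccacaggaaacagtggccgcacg
Ackr3: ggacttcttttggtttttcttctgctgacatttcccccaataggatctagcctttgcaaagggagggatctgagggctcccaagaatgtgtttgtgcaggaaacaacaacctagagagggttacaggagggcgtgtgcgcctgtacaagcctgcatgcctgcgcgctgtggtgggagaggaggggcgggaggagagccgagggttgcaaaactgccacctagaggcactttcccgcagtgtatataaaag
Gpr37: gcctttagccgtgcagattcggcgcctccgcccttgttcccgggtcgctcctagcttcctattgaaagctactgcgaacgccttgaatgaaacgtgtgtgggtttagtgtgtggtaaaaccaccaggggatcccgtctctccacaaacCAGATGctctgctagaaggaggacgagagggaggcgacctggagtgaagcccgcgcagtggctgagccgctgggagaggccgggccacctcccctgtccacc
Gpr157: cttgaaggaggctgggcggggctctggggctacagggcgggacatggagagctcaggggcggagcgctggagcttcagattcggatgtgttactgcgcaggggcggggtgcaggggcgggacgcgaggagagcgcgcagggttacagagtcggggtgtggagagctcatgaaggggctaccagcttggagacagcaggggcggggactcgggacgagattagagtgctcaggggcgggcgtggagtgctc
S1pr3: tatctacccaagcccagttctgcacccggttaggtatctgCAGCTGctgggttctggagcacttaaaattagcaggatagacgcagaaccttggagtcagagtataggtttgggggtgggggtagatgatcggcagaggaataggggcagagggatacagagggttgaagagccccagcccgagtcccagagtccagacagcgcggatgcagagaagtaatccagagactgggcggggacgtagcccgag
The Adgrg3 window held 2 matches to CANNTG, the Gpr37 window 1, the S1pr3 window 1 and the Ackr3 and Gpr157 windows 0. The S1pr3 match is CAGCTG, a form of CANNTG that is also palindromic. Over all 32851 windows of that length in the table, 66.2% held CANNTG and 13.0% held CAGCTG. Of the 97 receptors, 74 matched the table with 104 windows, of which 62.5% held CANNTG and 12.5% held CAGCTG. For receptors higher under both ligands, 8 of 12 matched with 14 windows, of which 57.1% held CANNTG and 14.3% held CAGCTG. For those lower under both, 16 of 24 matched with 27 windows, of which 63.0% held CANNTG and 14.8% held CAGCTG. The median number of CG dinucleotides was 6 over all windows, 11 over receptor windows, 5.5 for the higher and 16 for the lower receptors, and windows of a gene with several starts overlap in part. A match is a description of letters and not a binding site.

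Values are normalized read counts, whole numbers that the authors had scaled by 1 factor per library. They summed to between 4214458 and 4600575 per library, and undoing the factors gave 3629256 to 5396233 reads on genes. Counting error alone came to between 16.1% and 19.9% of a value of 30 and between 8.84% and 10.9% of a value of 100. The ET-3 pair and the NT pair each varied no more than sampling would give, at a chi-square averaging 0.885 and 0.927 over genes, against 1.44 for the DMSO pair. Counts are therefore given a second time with the mean of each treated pair taken as 1 sample. Folds and log2 fold changes are on the log2(value + 1) scale, which understates changes of low genes, and receptors are called higher or lower at a limma adjusted p (Benjamini-Hochberg over 13921 genes) of at most 0.05 and at least a 2-fold difference. Only such genes are said to have risen or fallen.

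More receptors fell than rose with either ligand. Against DMSO, 12 receptors rose and 28 fell under ET-3, of 72 tested. Among all tested genes, 6.62% rose and 14.9% fell in that comparison. With NT, 13 receptors rose and 24 fell, where 7.30% and 13.2% of all tested genes did. The receptors' shares were thus 16.7% and 38.9% under ET-3 and 18.1% and 33.3% under NT. The largest rise under both ligands was that of Adgrg3, and the 4 largest falls were those of Gpr20, Adora1, Gpr139 and Gprc5c, of which the first 3 had treated values of 0 to 5, where the fitted change depends on the pseudocount. With both ligands 12 receptors rose (5.85% of all tested genes did) and 24 fell (12.5% of all), and 0 moved in opposite directions, but the 2 comparisons share the DMSO libraries. The median log2 fold change of the 72 receptors was -0.28 under ET-3 and -0.36 under NT, against -0.01 and -0.01 over all tested genes. With each treated pair as 1 sample, 4 receptors rose and 17 fell under ET-3, where 3.33% and 11.9% of all genes did. With NT, 4 rose and 16 fell under that setting, where 3.40% and 10.4% of all genes did. Without a fold limit, 15 receptors were higher and 36 lower under ET-3 (30.6% and 33.2% of all tested genes), and 21 higher and 34 lower under NT (29.7% and 32.5%).

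**Figure D1:**
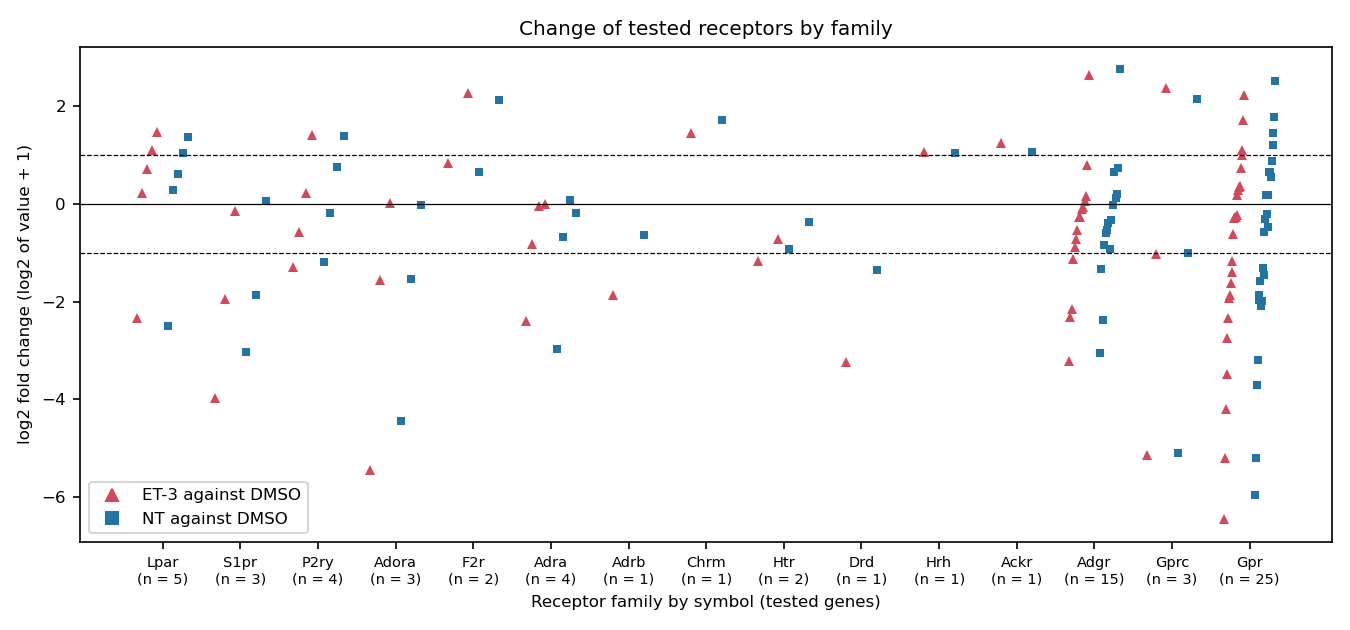
The log2 fold change on the log2(value + 1) scale of 71 of the 72 tested receptors, by family on the horizontal axis, with triangles for ET-3 and squares for NT against DMSO and dashed lines at 2-fold. Under ET-3 the lowest points of the Gpr, Adora, Gprc5, S1pr, Drd and Adgr families lie between -6.45 (Gpr20) and -3.21 (Adgrd1). The points for Lpar1, Lpar2, Lpar4 and Lpar6 lie above 0.

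Fewer cells that hold a transcript and less of it per cell cannot be told apart in bulk RNA. Some markers of other cells moved with the groups and others did not. Listed were 7 of 7 smooth muscle and pericyte genes, 6 of 8 fibroadipogenic and 5 of 10 blood cell genes. Of the endothelial, Schwann and myogenic genes, 6 of 9, 3 of 6 and 10 of 10 were listed. As background for each marker list, 6.62% of all tested genes rose and 14.9% fell under ET-3, and 7.30% and 13.2% under NT. Of the smooth muscle and pericyte list, 4 of 5 tested genes (Rgs5, Acta2, Pdgfrb and Notch3) fell with both ligands, and its summed value was 3572 to 4197 in DMSO, 1028 to 1070 under ET-3 and 1129 to 1206 under NT. Acta2, at 1216 and 1382 in DMSO, and Notch3, at 1397 and 1773, held most of the sum there. The fifth tested gene, Cspg4, was at 610 and 612 in DMSO, 433 and 509 under ET-3 and 497 and 508 under NT, a difference under 2-fold. Kcnj8 and Myh11 of the same list were at or near 0 in every library, with values of 0 to 4. The summed fibroadipogenic list lay at 956 to 1034 in DMSO, 486 to 557 under ET-3 and 495 to 524 under NT. In it Gsn and Col1a1 fell, Smoc2 rose, and Dcn was at 9 and 17 in DMSO against 0 to 2 in treated libraries. Ly6a was at 27 and 18 in DMSO, 37 and 43 under ET-3 and 38 and 52 under NT. For Pdgfra these values were 20 and 30, 26 and 30, and 44 and 37. Both differences stayed under 2-fold, and Gsn, at 740 and 805 in DMSO, held most of the sum. The blood cell list summed to 99 and 99 in DMSO and 202 to 223 and 203 to 206 with the ligands through Laptm5, its 1 gene of 3 tested that rose, whereas Itgam was at 14 and 7 in DMSO and at 0 in all 4 treated libraries. The endothelial list summed to 72 to 73, 61 to 78 and 69 to 77, but of its 4 tested genes Kdr rose and Vwf fell with both ligands, and Pecam1, at 3 to 15, rose under NT. The Schwann list summed to 67, 32 to 44 and 55 to 69. Of the myogenic list, 9 of 10 genes were tested, and 0 rose and 2 fell, Myog and Cdh15, with either ligand. Chodl, which was not tested, was at 2 to 7 in every library. Pax7, which marks MuSCs, was at 857 and 1070 in DMSO, 1754 and 1730 under ET-3 and 1653 and 1599 under NT. Myog, which marks differentiating cells, went from 1157 and 1335 to 31 and 38 under ET-3 and 31 and 28 under NT. Cdh15, a cadherin of MuSCs, went from 1547 and 1746 to 483 and 462 under ET-3 and 496 and 436 under NT. The part of other cells or of differentiation in the receptor results was not tested.

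**Figure D2:**
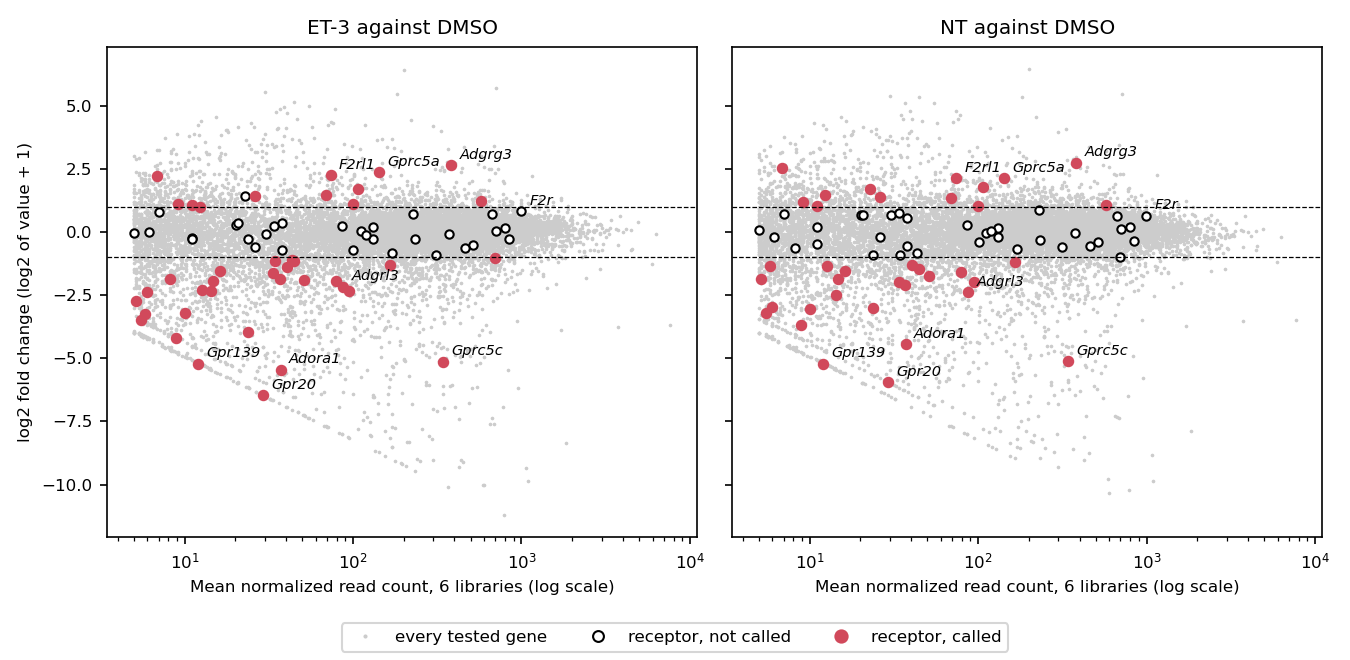
The log2 fold change against DMSO on the log2(value + 1) scale, plotted against the mean normalized read count over 6 libraries on a log axis, with every tested gene in gray and the receptors as circles, filled where called. Called receptors are spread over low and high values, and Gprc5c, Gpr20, Adora1 and Gpr139 lie at log2 fold changes of -4.45 or lower in both panels.

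Per kilobase of exon, the receptors with the highest mean values were F2r, Adgre5, Ackr3, Lpar1 and Gprc5b. F2r, the thrombin receptor, had a mean value of 205 per kilobase in DMSO, 368 under ET-3 and 322 under NT. Adgre5 (CD97), an adhesion receptor that binds CD55, had 255, 212 and 202 per kilobase. For Ackr3 these means were 94.2, 224 and 198, for Lpar1 112, 182 and 172, and for Gprc5b 226, 112 and 113. Adgre5 and Gprc5b thus led in DMSO, while F2r led with both ligands.

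Receptors for lysophosphatidic acid (LPA) went in both directions. Of 5 Lpar genes, all tested, 2 rose and 1 fell with either ligand. Over all tested genes, 6.62% rose and 14.9% fell under ET-3, and 7.30% and 13.2% under NT. Lpar1, a widespread receptor of this group, was at 504 and 454 in DMSO, 776 and 787 under ET-3 and 727 and 747 under NT. All 4 treated libraries lay above both controls, and the log2 difference was 0.71 under ET-3 (SE 0.0568, limma adjusted p = 2.64e-06) and 0.62 under NT (6.98e-06), under the 2-fold limit. Lpar2 rose from 26 and 39 to 87 and 94 under ET-3 and 74 and 95 under NT, 2.78-fold (limma adjusted p = 0.000185) and 2.58-fold (0.000327). Lpar6, a receptor of the P2Y-like LPA group, rose from 71 and 45 to 118 and 127 under ET-3 and 110 and 125 under NT, 2.14-fold and 2.05-fold (limma adjusted p = 0.000668 and 0.00102). Without the second DMSO library its log2 fold changes were 0.78 and 0.72, and without the second NT library 0.95 under NT, all under the limit. Lpar6 lies inside Rb1 on the opposite strand with 7.56% of its exonic bases shared, and Rb1 went from 1258 and 1298 in DMSO to 279 to 348 in the treated libraries, and how reads of the shared bases were assigned was not tested. Lpar3, which like Lpar1 and Lpar2 belongs to the EDG group, fell from 42 and 23 to 7 and 4 under ET-3 and 3 and 7 under NT, at log2 fold changes of -2.34 and -2.51 (SE 0.466, limma adjusted p = 0.00141 and 0.000971). Without the first DMSO library the adjusted p of Lpar3 under ET-3 was 0.0538. Lpar4 did not pass the test, with 68 and 84 in DMSO, 83 and 94 under ET-3 and 112 and 76 under NT. Of the Lpar calls, 0 were kept with each treated pair as 1 sample, at adjusted p between 0.0842 and 0.171 for Lpar2, Lpar3 and Lpar6.

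Among the 3 sphingosine-1-phosphate receptors, 2 fell and the third did not pass the test. Falls were called in 14.9% of all tested genes under ET-3 and 13.2% under NT. S1pr1, known for its part in vascular stability and lymphocyte exit from tissues, had 76 and 47 in DMSO, 2 and 4 under ET-3 and 6 and 7 under NT. Both ligands brought it to values far under both controls, by a log2 fold change of -3.97 under ET-3 (SE 0.388, limma adjusted p = 1.05e-05) and -3.02 under NT (7.81e-05). With each treated pair as 1 sample, its adjusted p was 0.0404 under ET-3 and 0.0539 under NT. S1pr3 fell from 32 and 27 to 6 and 8 under ET-3 and 9 and 6 under NT, at log2 fold changes of -1.94 and -1.86 (SE 0.342, limma adjusted p = 0.000657 and 0.000898), and both calls were kept under that setting. S1pr2, which couples to several classes of G proteins, was at 135 and 109 in DMSO, 111 and 110 under ET-3 and 126 and 127 under NT. The treated values of S1pr2 lay within the range of the controls, and its log2 differences were -0.13 and 0.06 (SE 0.124, limma adjusted p = 0.369 and 0.693).

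Of the 4 P2ry genes, named for nucleotide receptors and all tested, 1 rose and 1 fell with each ligand. Over all tested genes, 6.62% rose and 14.9% fell under ET-3, and 7.30% and 13.2% under NT. P2ry10b, a relative of the lysophosphatidylserine receptor P2ry10, fell from 282 and 258 to 105 and 113 under ET-3 and 129 and 109 under NT, 2.46-fold and 2.26-fold lower (limma adjusted p = 3.74e-06 and 8.03e-06). P2ry14, a UDP-glucose receptor, rose from 17 and 8 to 32 and 34 under ET-3 and 35 and 30 under NT, 2.67-fold and 2.62-fold (limma adjusted p = 0.00394 and 0.00459). Its rise depends on the second DMSO library, without which the log2 fold changes were 0.92 and 0.89, and without the first NT library its adjusted p under NT was 0.0562. When each treated pair was 1 sample, P2ry10b kept both calls and P2ry14 kept none (adjusted p = 0.199 and 0.206). P2ry14 lies within the span of Med12l on the other strand, which went from 32 and 40 to 7 to 12. P2ry1, the ADP receptor, had 27 and 25 in DMSO, 27 and 35 under ET-3 and 44 and 45 under NT, and P2ry2, a receptor for ATP and UTP, had 29 and 33, 19 and 22, and 29 and 25. Neither reached 2-fold, and P2ry1 shares 23.1% of its exonic bases with a gene on the other strand.

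Of the 3 adenosine receptors, 2 fell under either ligand and the third did not pass the test. Falls were called in 14.9% of all tested genes under ET-3 and 13.2% under NT. Adora1, which lowers cyclic AMP, was at 99 and 113 in DMSO, 1 and 2 under ET-3 and 5 and 3 under NT. Its values with either ligand were close to 0, at a limma adjusted p of 8.93e-07 under ET-3 and 4e-06 under NT. Adora1 shares 20.1% of its exonic bases with Mybph on the other strand, a muscle gene that went from 1198 and 1344 to 0 to 5, and how reads of the shared bases were assigned was not tested. Adora2a, which raises cyclic AMP, fell from 43 and 18 to 11 and 7 under ET-3 and 9 and 9 under NT, 2.95-fold and 2.89-fold lower (limma adjusted p = 0.00864 and 0.00984), and neither call was kept without the first DMSO library, where the log2 fold changes were -0.96 and -0.93. The ET-3 call of Adora2a was also lost without the second ET-3 library (adjusted p = 0.0911), and the NT call without either NT library (0.0675 and 0.0678). Adora1 kept both calls with each treated pair as 1 sample, and Adora2a kept none (adjusted p = 0.228 and 0.230). Adora2b, the low-affinity receptor, was at 108 and 115 in DMSO, 111 and 116 under ET-3 and 101 and 119 under NT. The groups overlapped fully, with log2 differences of 0.03 and -0.02 (SE 0.122, limma adjusted p = 0.865 and 0.877).

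**Figure D3:**
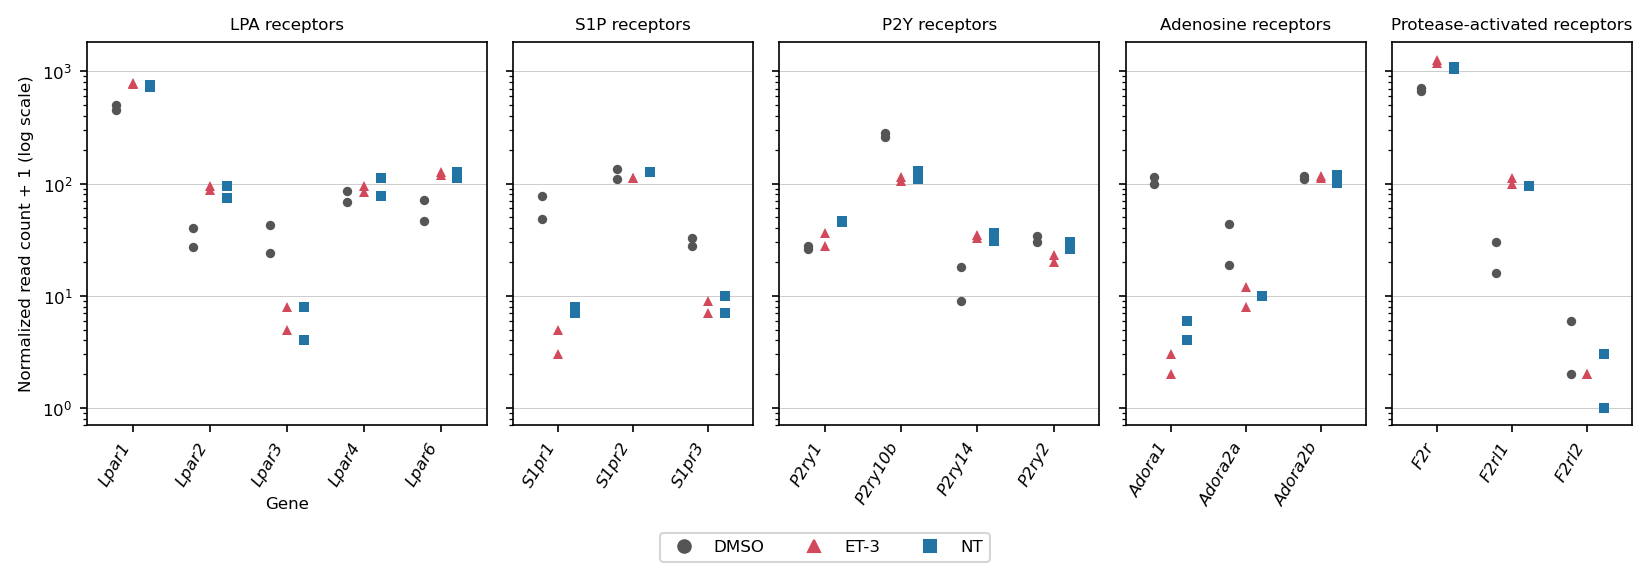
Normalized read counts plus 1, on a log axis, of the lipid, nucleotide, adenosine and protease-activated receptors, with 1 mark per library (circles DMSO, triangles ET-3, squares NT) and 1 gene per position. S1pr1, S1pr3, Lpar3 and Adora1 drop to values under 10 in the treated libraries, while S1pr2 and Adora2b stay near 100.

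The protease-activated receptors, which proteases switch on by cutting their N terminus, included 2 tested genes, of which 1, F2rl1, rose with either ligand. Over all tested genes, 6.62% rose under ET-3 and 7.30% under NT. The genes of these receptors lie together on chromosome 13, F2rl1 at chr13:95511732-95525227, F2r at chr13:95601803-95618487 and F2rl2 at chr13:95696853-95702739 (GRCm38). F2r had 661 and 709 in DMSO, 1263 and 1194 under ET-3 and 1093 and 1055 under NT. Each treated library exceeded both controls, by 1.79-fold under ET-3 (SE 0.0517 on the log2 scale, limma adjusted p = 4.07e-07) and 1.57-fold under NT (2.68e-06), under the 2-fold limit. F2rl1, the receptor for trypsin-like proteases, rose from 29 and 15 to 111 and 98 under ET-3 and 95 and 94 under NT. The rise was 4.81-fold under ET-3 (limma adjusted p = 3.44e-05) and 4.36-fold under NT (5.73e-05), and with each treated pair as 1 sample the adjusted p was 0.0930 and 0.105. F2rl2 was under the limit for testing, with values of 0 to 5.

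Receptors for amines had mostly few reads. Adrb1, which raises cyclic AMP, fell under ET-3, from 17 and 10 to 2 and 4 (limma adjusted p = 0.00323), and was at 8 and 8 under NT (0.212). Adrb1 was not shown to differ between the ligands, at a limma adjusted p of 0.151 for NT against ET-3. Adra1b, an alpha receptor that couples to calcium release, was at 252 and 215 in DMSO, 145 and 119 under ET-3 and 133 and 159 under NT, at log2 differences of -0.82 and -0.67 (SE 0.131, limma adjusted p = 0.000333 and 0.00125) that stayed under 2-fold. Adra2c, which lowers cyclic AMP, fell from 12 and 18 to 2 and 2 under ET-3 and 1 and 1 under NT (limma adjusted p = 0.00078 and 0.000189). The ET-3 calls of Adrb1 and Adra2c were lost with each treated pair as 1 sample, at adjusted p of 0.0964 and 0.0550, and the NT call of Adra2c was kept (0.0473).

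Drd4, a dopamine receptor, went from 14 and 11 in DMSO to 0 and 1 under ET-3 and 3 and 6 under NT (limma adjusted p = 0.000306 and 0.0423), and the NT call was lost in 9 of 15 alternatives. Hrh1, the histamine receptor of smooth muscle and endothelium, rose from 7 and 5 to 12 and 15 under ET-3 and 11 and 16 under NT, 2.08-fold and 2.06-fold (limma adjusted p = 0.025 and 0.0273). These Hrh1 calls were lost without the second DMSO library (log2 differences 0.85 and 0.84) or without the second library of the ligand (0.91 and 0.79). Chrm3, a muscarinic receptor, had 22 and 3 in DMSO, 30 and 21 under ET-3 and 31 and 30 under NT, and its call under NT (limma adjusted p = 0.0388) was lost without any 1 library other than the first DMSO library, with a log2 difference of 0.45 without the second. Htr1b, a serotonin receptor, was at 127 and 126 in DMSO, 87 and 68 under ET-3 and 107 and 88 under NT, at log2 differences of -0.71 and -0.38 (SE 0.154, limma adjusted p = 0.00239 and 0.0544). Htr2b, chosen after its values were seen, fell under ET-3 from 60 and 46 to 21 and 25 and had 26 and 29 under NT, a call lost with each treated pair as 1 sample (adjusted p = 0.0821). Hrh1 and Chrm3 were thus the amine receptors higher with a ligand, and neither call was kept with each treated pair as 1 sample, at adjusted p between 0.11 and 0.113 for Hrh1 and of 0.439 for Chrm3 under NT.

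Of the chemokine receptors described here, Ackr3 alone passed the limit for testing. It is an atypical receptor that takes up Cxcl12 and signals through arrestins. Ackr3 (chr1:90203980-90216751) had 325 and 306 in DMSO, 739 and 762 under ET-3 and 668 and 659 under NT. The values within a group lay close together and the groups did not overlap, with a rise of 2.38-fold under ET-3 (SE 0.0519 on the log2 scale, limma adjusted p = 2.83e-08) and 2.10-fold under NT (8.57e-08). Both calls were kept with each treated pair as 1 sample, at adjusted p of 0.025 and 0.0289. Its ligand Cxcl12 was at 1275 and 959 in DMSO, 1641 and 1651 under ET-3 and 1609 and 1535 under NT, a log2 difference of 0.57 and 0.51 (limma adjusted p = 0.000695 and 0.0016), under 2-fold. Ackr4, Cxcr3 and Cxcr6 had values of 0 to 7.

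Adhesion receptors held the largest rise of any receptor beside several falls. Of 16 Adgr genes, 15 were tested, with 1 higher and 4 lower under ET-3 and 1 higher and 3 lower under NT. These are 6.67% and 26.7% under ET-3 and 6.67% and 20% under NT. The shares over all tested genes were 6.62% and 14.9% under ET-3 and 7.30% and 13.2% under NT, so the share of rises was near that background. Adgrg3 (GPR97), best known from neutrophils, had 87 and 76 in DMSO, 515 and 514 under ET-3 and 564 and 545 under NT. All treated values lay far above both controls, by 6.26-fold under ET-3 (SE 0.0754 on the log2 scale, limma adjusted p = 2.97e-09) and 6.75-fold under NT (3.54e-09), and both calls were kept with each treated pair as 1 sample. Its upstream neighbor Adgrg1 (GPR56), on the same strand of chromosome 8, was at 383 and 384 in DMSO, 357 and 362 under ET-3 and 373 and 384 under NT, at limma adjusted p of 0.161 and 0.778. Adgrg1 was named after its values were seen. Adgrl3, a latrophilin that binds teneurins and FLRT proteins, fell from 181 and 191 to 39 and 43 under ET-3 and 41 and 30 under NT, 4.46-fold and 5.18-fold lower (limma adjusted p = 3.74e-06 and 2.04e-06). The fall of Adgrl3 was also called with each treated pair as 1 sample.

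Adgrd1, a further adhesion receptor, fell from 30 and 21 to 1 and 3 under ET-3 and 4 and 1 under NT (limma adjusted p = 0.000524 and 0.000775). Adgrf2, an orphan, fell from 33 and 17 to 4 and 4 under ET-3 and 7 and 11 under NT (limma adjusted p = 0.000654 and 0.0159), and its NT call was lost without the first DMSO or the first NT library (log2 fold changes -0.88 and -1.04). The fourth adhesion receptor lower under ET-3 was Adgrg2, chosen after its values were seen, at 70 and 60 in DMSO, 26 and 33 under ET-3 and 35 and 37 under NT. Phka2, a nearby gene on the same strand, was lower as well, at 513 and 528 in DMSO and 228 to 259 in treated libraries. Adgrd1 kept both calls with each treated pair as 1 sample, while Adgrf2 (adjusted p = 0.0944 and 0.203) and Adgrg2 (0.0549) kept none. Adgre5 was at 933 and 981 in DMSO, 802 and 793 under ET-3 and 777 and 740 under NT. This difference was 1.20-fold and 1.26-fold at limma adjusted p of 0.000823 and 0.000168, and 24.6% of its exonic bases are shared with Ddx39 on the other strand and a microRNA gene. Adgrl2 and Adgra2, also chosen after their values were seen, were lower by under 2-fold, with Adgrl2 at 615 and 645 in DMSO and 435 to 495 in treated libraries, and Adgra2 at 453 and 401 against 227 to 292.

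The Gprc5 receptors, first found as genes induced by retinoic acid, split by member. Gprc5a rose from 42 and 37 to 217 and 202 under ET-3 and 162 and 194 under NT. Its groups did not overlap, with a rise of 5.20-fold (SE 0.129 on the log2 scale, limma adjusted p = 1.69e-07) and 4.41-fold (3.81e-07). Gprc5c (chr11:114851152-114872617) went the other way, from 930 and 1022 in DMSO to 24 and 30 under ET-3 and 28 and 27 under NT. At 35.1-fold and 34.2-fold lower (SE 0.144 on the log2 scale, limma adjusted p = 2.75e-09 and 3.79e-09) its fall had the lowest adjusted p of any receptor under ET-3, and it was the largest fall of any receptor whose value in DMSO was over 200. Gprc5b was at 1053 and 1043 in DMSO, 486 and 550 under ET-3 and 550 and 501 under NT. The log2 fold changes of Gprc5b were -1.02 and -0.996 (SE 0.0673, limma adjusted p = 6.64e-07 and 8.35e-07), on either side of the 2-fold limit, so the call under ET-3 alone does not show a difference between ligands. The call of Gprc5b under ET-3 was lost under both other scalings of the libraries, at -0.93 and -0.97, and without the first ET-3 library, at -0.93. Both Gprc5a and Gprc5c were called with each treated pair as 1 sample.

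Of 25 tested genes with Gpr symbols, not all of them orphans, 4 rose and 11 fell with each ligand, or 16% and 44%. The shares over all tested genes were 6.62% and 14.9% under ET-3 and 7.30% and 13.2% under NT. Only 1 of the 4 rises was kept with either ligand when each treated pair was 1 sample, and 7 of the 11 falls under ET-3 and 8 under NT were. Several went from clear expression to near 0. Gpr20, an orphan that lowers cyclic AMP without a known ligand, was at 80 and 94 in DMSO, 0 and 0 under ET-3 and 1 and 0 under NT. Gpr139, an orphan best known in brain that responds to aromatic amino acids, was at 35 and 37 in DMSO and at 0 in all 4 treated libraries. Against a floor of 3 reads over the group, Gpr20 was at least 50.8-fold lower under ET-3, and Gpr139 at least 21.0-fold lower under ET-3 and 29.3-fold lower under NT (limma adjusted p between 1.24e-06 and 4.84e-06 for these 3 comparisons). Gpr37, known from glia and dopamine neurons, went from 26 and 24 to 0 and 1 under ET-3 and 1 and 1 under NT (limma adjusted p = 3.34e-05 and 8.66e-05). Gpr35, a receptor of gut and immune cells, went from 17 and 13 to 0 and 1 under ET-3 and 2 and 0 under NT (limma adjusted p = 0.000711 and 0.00131). In each of these 4 genes every treated library lay under both controls, and all 4 were called in both comparisons with each treated pair as 1 sample.

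Other Gpr genes fell to a lower but clear level. Gpr63 fell from 195 and 197 to 33 and 44 under ET-3 and 41 and 59 under NT, 5.04-fold and 3.92-fold lower (limma adjusted p = 4.74e-06 and 1.68e-05). Gpr155, a lysosomal protein that senses cholesterol, fell from 148 and 151 to 35 and 43 under ET-3 and 43 and 57 under NT, 3.78-fold and 2.98-fold lower (9.44e-06 and 4.1e-05 by limma). These falls and those of Gpr157 were called with each treated pair as 1 sample. Gpr157 fell from 75 and 73 to 24 and 16 under ET-3 and 14 and 20 under NT, 3.64-fold and 4.23-fold lower. Gpr176, a receptor of the circadian center of the brain, fell from 72 and 57 to 15 and 27 under ET-3 and 18 and 13 under NT, 3.07-fold and 3.99-fold lower, and its ET-3 call was lost without the first DMSO library (log2 fold change -1.45, adjusted p = 0.0595). Gpr137c, at 18 and 6 in DMSO, had 2 and 0 under ET-3 and 4 and 1 under NT, and its NT call was lost in 11 of 15 alternatives. The ET-3 call of Gpr137c was lost without the first DMSO library (adjusted p = 0.144), without the second ET-3 library (0.0932) and with each treated pair as 1 sample (0.149). Gpr146 and Gpr153, chosen after their values were seen, fell 2.62-fold and 2.24-fold under ET-3 and 2.50-fold and 2.74-fold under NT, and 0 of these 4 calls were kept with each treated pair as 1 sample (adjusted p between 0.0587 and 0.0982). The ET-3 call of Gpr176 was lost there too (0.0530).

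Of the 4 Gpr genes that rose with each ligand, 1 was called with each treated pair as 1 sample, Gpr137b. Gpr137b, a lysosomal membrane protein, rose from 44 and 38 to 136 and 138 under ET-3 and 134 and 154 under NT, 3.29-fold and 3.45-fold (limma adjusted p = 2.36e-06 and 1.93e-06). Its near copy Gpr137b-ps rose as well, from 43 and 41 to 105 and 93 under ET-3 and 85 and 105 under NT, so how the reads divide between them is uncertain. Gpr162 had 0 and 3 in DMSO, 10 and 7 under ET-3 and 10 and 11 under NT, 4.69-fold and 5.74-fold higher (limma adjusted p = 0.00853 and 0.00452). Gpr135 had 5 and 7, 11 and 15, and 18 and 18 (0.0248 and 0.00371). These low genes did not overlap between treated and control libraries, but neither was called with each treated pair as 1 sample. Gpr162 was also lost without the first ET-3 library (adjusted p = 0.0936) or the second NT library (0.0530), and Gpr135 under ET-3 without the first DMSO or the second ET-3 library (log2 difference 0.79 in both). Both have a nearby gene on the same strand that was higher as well. P3h3, beside Gpr162, had 48 and 62 in DMSO and 127 to 180 in treated libraries. L3hypdh, beside Gpr135, had 32 and 46 against 86 to 95, and whether its reads or those of P3h3 reached the receptor genes was not tested. Gpr3, which raises cyclic AMP without a ligand and was chosen after its values were seen, had 4 and 5 in DMSO and 9 to 15 in the treated libraries, with no call kept with each treated pair as 1 sample (adjusted p = 0.0737 and 0.0692). Gpr107, a Golgi protein, was at 596 and 599 in DMSO, 379 and 397 under ET-3 and 402 and 403 under NT, 1.54-fold and 1.48-fold lower (limma adjusted p = 3.39e-06 and 6.85e-06).

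**Figure D4:**
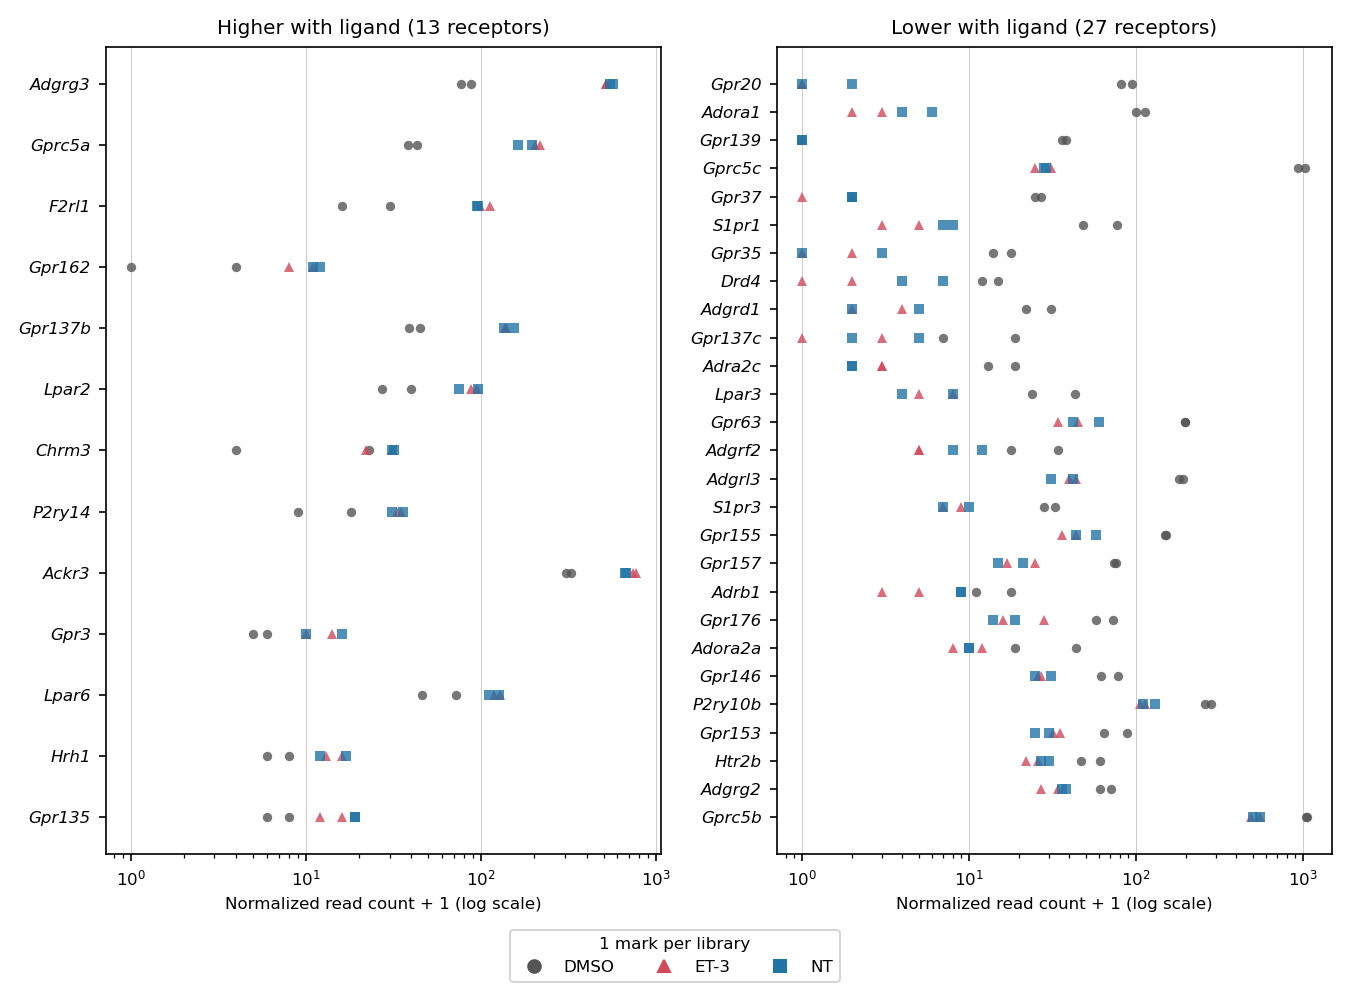
Normalized read counts plus 1, on log axes, of 40 of the 41 receptors called in at least 1 comparison, with 1 mark per library (circles DMSO, triangles ET-3, squares NT), 13 higher on the left and 27 lower on the right, ordered by log2 fold change under ET-3. Treated and control marks are apart in 39 of the 40 receptors, and overlap in Chrm3, but being called favors such a gap. Over all tested genes, all 4 treated libraries lay above both controls in 33.2% and below both in 36.4%.

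Over the 72 tested receptors, all 4 treated libraries lay above both controls in 19 and below both in 38, where 33.2% and 36.4% of all tested genes did. In the remaining 15 receptors the values overlapped. The limit of 5 left out receptors close under it, such as Gpr39 at a mean of 4.33, Gpr45 at 4 and Gpr27 at 3.83, while Adra2a, Gpr137c and Gpr35 lay just above it at 5, 5.17 and 5.5. Gpr45 had 8 and 10 in DMSO and 1 to 2 in the treated libraries, and Gpr39 had 3 and 1 in DMSO, 6 and 9 under ET-3 and 5 and 2 under NT. The 25 receptors under the limit, among them Adrb3, Chrm2, Chrm4, Hrh3, Htr2a and Htr6, had values between 0 and 10 in every library.

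In limma, 0 of 72 receptors were higher or lower under NT than under ET-3, and 11 had an unadjusted p under 0.05, with a smallest adjusted p of 0.0718 for Adgra2. Over all tested genes, 0.0503% were higher and 0.0287% lower at 2-fold, and 0.647% and 2.05% without a fold limit. The next receptors in that order were F2r, lower under NT by a log2 difference of -0.19 (SE 0.0517, limma adjusted p = 0.0779), and Drd4, higher by 1.90 (SE 0.51, 0.0785). Ackr3 followed at -0.18 (SE 0.0519, 0.102). Some alternatives put 3 receptors past the threshold of p, each by a difference under 2-fold, with the lowest limma adjusted p at 0.0193 for F2r, 0.0422 for Ackr3 and 0.0449 for Adgra2 and the highest at 0.712 for each. With 2 libraries per group these values do not show that the ligands act alike.

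Of the 9 genes that share only letters with the receptors, 8 were tested, and 0 rose and 4 fell with either ligand. Over all tested genes, 6.62% rose and 14.9% fell under ET-3, and 7.30% and 13.2% under NT. Gprasp1, a protein that sorts receptors to lysosomes, fell from 578 and 610 to 242 and 246 under ET-3 and 287 and 270 under NT. Gprin1, Gprin2 and Htra3, the last a secreted serine protease, fell as well, with means going from 95, 86.5 and 212 in DMSO to 37.5, 2.5 and 66 under ET-3 and 47, 3.5 and 93.5 under NT. The NT call of Gprin1 was the 1 of these lost with each treated pair as 1 sample.

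Genes that act around the receptors were described from fixed lists. Of 11 tested receptor kinases and arrestins, 1 rose and 5 fell under ET-3, and 1 rose and 4 fell under NT. Among all tested genes, 6.62% rose and 14.9% fell under ET-3, while 7.30% and 13.2% did under NT, which is the background for each list here. With each treated pair as 1 sample, 1 of the kinases and arrestins rose and 5 fell under ET-3, and 1 rose and 3 fell under NT. Grk6, a receptor kinase, rose from 287 and 286 to 1155 and 1072 under ET-3 and 977 and 972 under NT, while Grk2 stayed between 683 and 829. The arrestin-like genes Txnip, Arrdc3 and Arrdc4 and the kinase Grk4 fell with both ligands, and Arrb1 under ET-3. The list had a median log2 fold change of -0.99 under ET-3 and -0.69 under NT, against -0.01 over all genes.

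Of 9 tested enzymes and carriers of LPA and S1P, 0 rose and 1 fell, namely Plpp1, a lipid phosphatase, from 498 and 531 to 201 and 222 under ET-3 and 190 and 190 under NT. Around nucleotides and adenosine, 2 of 8 rose and 2 fell with either ligand. Nt5e (CD73), which makes adenosine from AMP, rose from 27 and 34 to 91 and 119 under ET-3 and 83 and 97 under NT, and Slc29a1, an adenosine transporter, fell from 1326 and 1361 to 693 and 649 and 666 and 644. The other rise was that of Enpp1 and the other fall that of Enpp3. Of 11 proteases, inhibitors and cofactors around the protease-activated receptors, 3 rose and 2 fell with either ligand. Thbd, which binds thrombin, rose from 77 and 41 to 261 and 280 under ET-3 and 216 and 287 under NT, and Procr and Plaur rose too, while F2 (prothrombin) fell from 85 and 87 to 0 to 2 and Plat from 150 and 180 to 7 to 11. Of 14 trafficking genes, 1 rose and 4 fell under ET-3 and 2 rose and 4 fell under NT, with Ramp2 higher and Ramp3, Reep1, Reep2 and Gprasp1 lower with both. Of 6 chemokine ligands, 0 rose with either ligand, and 2 fell under ET-3 (Ccl2 and Ccl7) and 3 under NT (these and Cxcl1). Thbd, Procr, Ramp2 and Ccl2 lost their calls with both ligands when each treated pair was 1 sample (adjusted p between 0.0573 and 0.107), and Nt5e (0.0536), Ccl7 (0.0670), Cxcl1 (0.0934), Arrdc4 (0.0690) and Gpsm3 (0.121) lost theirs under NT. Medians of these 5 lists were between -0.53 and 0.43 under ET-3 and between -0.86 and 0.35 under NT on the log2 scale.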

How the data were processed

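RNA-seq of MuSCs was examined in 6 libraries. The sources differ on how these were made: the labels name a full-length kit that does not mark strand, the study's methods a stranded kit, and neither states whether counting used strand. Per the labels, reads were processed with Trimmomatic 0.38, STAR 2.7.7a on mm10, featureCounts 1.6.5 and DESeq2 1.30.0, while the study's methods name Reaper for trimming and leave out reads on several genes or regions. The deposited table holds a read signal of whole numbers, that is, counts multiplied by 1 factor per library (0.781 to 1.19) and rounded by the authors. The scaled values do not suit a count model, so a test on the log2 scale was planned as the main test. The deposited table holds no comparison columns, and 0 columns without a sample.

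Values were tested with limma 3.58.1 in R 4.3.3 on log2(value + 1) with a mean-variance trend, for genes with a mean of at least 5, in 1 fit of all libraries, with Benjamini-Hochberg adjustment over 13921 genes in each of 3 comparisons. Genes were called at 2-fold with an adjusted p no higher than 0.05. Replicate numbers did not pair the libraries. The fit was tested on simulated data. Exonic lengths and overlaps came from GENCODE (GRCm38), promoters from RefSeq. Alternatives covered the filter, scaling, pseudocount (0.5 and 5), voom weights on recovered reads, a replicate block, 2 groups alone, libraries left out, treated pairs as 1 sample, and no fold limit. Named were up to 30 called receptors by size of change, the highest of each family, the 5 highest per kilobase, any called between ligands, and tested F2r, Lpar, S1pr and P2ry genes. The members and lists were chosen with earlier results of these data known. 1 further receptor gene was left out of the members, and 1 member is counted but not reported by name.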

Additional observations from a re-analysis of the deposited data

How the results depend on the processing

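Counts of receptors moved most when each treated pair was averaged to 1 sample, to 4 higher and 17 lower with ET-3 and 4 higher with NT (16 lower), a setting in which the lone averages are assumed to vary like the DMSO pair. Without a fold limit, 21 receptors were higher with NT. Leaving out each library in turn gave 8 to 12 higher and 23 to 28 lower with ET-3, and 9 to 12 higher and 20 to 24 lower with NT. The remaining alternatives kept counts within 1.5 times, and NT against ET-3 gave 0 receptors in all of them. With the replicate block, 13 receptors were higher and 28 lower with ET-3, and 13 and 24 with NT. Deviations of same-numbered libraries correlated at -0.01, -0.07 and -0.02, so the numbers were not taken as pairs. Of 69 called changes of named receptors, 40 kept their call in all 15 alternatives and 0 reversed. Scaling to library totals moved the median of all genes from -0.01 and -0.01 to 0.08 and 0.10. The causes of these moves were not tested. Depth limits receptors with values under 30, where counting error alone is 16.1% or more.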
